A study of Mus musculus with 16 samples.

Results

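The fraction of hematopoietic stem cells labelled CD34+ (short-term HSC) was compared with the fraction labelled CD34- (long-term HSC) in control mice, on the 4 arrays titled control CD34Pos and the 4 titled control CD34Neg, 8 of the 16 mouse bead arrays of the study. Every probe was kept and the brightest probe stood for its gene. Control mice were IFNgamma-/- on the C57Bl/6 strain, and the other 8 arrays held the same fractions of IFNgamma-/-xCD70TG mice, so that the interferon gamma gene was inactivated in both. The CD70TG transgene adds CD70, the ligand of the TNF receptor family member CD27, and neither the promoter that drives it nor the age of the mice is given in the sources used here. Each array held RNA pooled from 2 mice, amplified over 2 rounds before labelling, and the 4 arrays of a group were independent pools. The sort took cells positive for c-Kit and Sca-1 and free of lineage markers, but the protocol in the labels lists CD34- and Flt3- cells for each fraction, against the study's design, so each fraction is called here by its label.

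Blood formation rests on stem cells that lie mostly at rest and renew themselves over the life of the animal, and on short-term stem cells that still form all lineages but renew themselves for a limited time. In the mouse, long-term stem cells carry little or no CD34 on their surface and short-term cells gain it as they approach multipotent progenitors. Both populations express genes of later lineages at a low level, most of all those of platelets and myeloid cells, which is called lineage priming. They also answer cytokines of the TNF and interferon families, the former in part through NF-kB.

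Array medians of the deposited log2-like values ran from 6.43 to 6.53, and between 50.2% and 57.5% of the probes exceeded an array's background. Within a fraction, control arrays correlated over probes at r = 0.987 to 0.995. Each difference is CD34+ minus CD34- on this scale, given with the SE of the limma fit for 4 arrays per fraction. Near background values are compressed and differences understated. A difference passed the test at a Benjamini-Hochberg adjusted p under 0.05 over all features. The first principal component of the control arrays held 46.7% of the variance and separated the fractions, at -19.9 to -4.77 in CD34- and 7.21 to 30.7 in CD34+ arrays, where CD34+ replicate 4 lay farthest out. The probe discordance index of an array was its score on the first principal component of signed differences between 2 probes of one gene. It used 1343 genes and the arrays of both genotypes, and was scaled to an SD of 1. It held 49.3% of the variance of these differences, and a lower value does not mean that probes disagreed less. It ran from -1.49 to 0.69 in control and from -0.16 to 1.20 in CD70TG arrays. In control mice the index was -1.20 ± 0.41 (SD) in CD34- and -0.38 ± 0.75 in CD34+ arrays. The difference of 0.813 gave p = 0.0857 in a two-sided exact permutation test, where 4 against 4 arrays can give no less than 0.0286. The part of this index in the results below was tested by adding it to the fit as a covariate, and its effect stands beside calls that it ended.

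Over 18312 features (16593 named genes and 1719 unnamed probes), 413 were higher in the CD34+ fraction (2.26%) and 468 were lower (2.56%), in all 4.81%. Differences of 1 unit or more made up 60 of the higher features (0.328%) and 82 of the lower ones (0.448%). The median of all differences was -0.006 and the median SE 0.086. The arrays of the fractions did not overlap for 1683 features (9.19%), and 5552 features were not above background on any control array. Of 10105 features above background on all 4 arrays of a fraction, 386 were higher (3.82%) and 424 lower (4.2%). Without CD34+ replicate 4, 570 features were called (246 higher and 324 lower), and a fit of the 8 control arrays alone called 467.

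**Figure D1:**
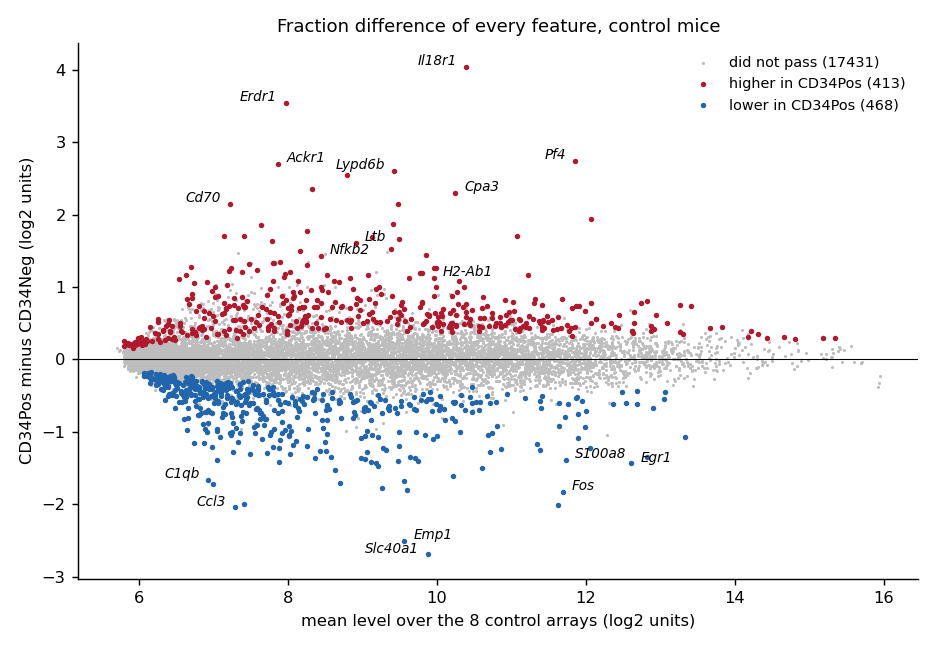
Difference between the fractions of control mice (y axis, log2 units) against the mean level over the 8 control arrays (x axis, log2 units) for 18312 features. Coloured points passed the test, 413 higher in red and 468 lower in blue; Il18r1 and Erdr1 lie highest and Slc40a1 and Emp1 lowest.

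Genes that define the sort or the mouse model were examined first. Cd34, which encodes the antigen that names the fractions, was at 9.77, 9.59, 9.57 and 9.63 in the CD34- arrays and at 9.56, 9.42, 9.70 and 9.18 in the CD34+ arrays. The fractions overlapped, the difference was -0.17 ± 0.13 with a 95% interval from -0.44 to 0.10, so Cd34 RNA was not measurably more abundant in CD34+ arrays. Flt3, the receptor that marks multipotent progenitors, was above background on 2 arrays of each fraction and did not pass (0.25 ± 0.39, adjusted p = 0.8). Cd48, a surface marker gained by progenitors, was higher by 1.02 ± 0.26 (adjusted p = 0.023). Its call was lost when the index entered the fit (adjusted p = 0.167) and with 1 array left out (adjusted p up to 0.085 without CD34- replicate 1, 2 or 4 or CD34+ replicate 1 or 4). Slamf1, which encodes CD150 (0.094 ± 0.11), Il7r (-0.74 ± 0.25), Fcgr2b (-0.18 ± 0.15), Fcgr3 (-0.055 ± 0.089) and Cd27, the receptor of CD70 (-0.24 ± 0.13), did not pass, and the smallest of their adjusted p was 0.0919, for Il7r. Il7r passed without CD34+ replicate 2 (adjusted p = 0.0247). Ifng, the inactivated gene, was above background on 3 arrays of each fraction, at 6.14 to 6.54 (0.033 ± 0.075). These levels lay close to the background thresholds of the control arrays, which ran from 6.30 to 6.51. A second Ifng probe was above background on 0 control arrays. Kit and Ly6a were not analysed here.

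Cd70 itself was at 6.19, 6.05, 6.21 and 6.12 in the CD34- arrays, none of them above background, and at 7.90, 9.60, 8.56 and 7.11 in the CD34+ arrays, all above it. Every CD34+ array was higher than every CD34- array, with CD34+ replicate 2 highest and replicate 4 lowest. Measured against the lowest signal above background, Cd70 was at least 3.69-fold higher (adjusted p = 7.91e-05), if the log base is 2. The labels give these mice no CD70 transgene.

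Il18r1, a subunit of the receptor for interleukin 18, had the largest fitted difference, though that of a gene at background in 1 fraction, such as Erdr1, is only a bound. It was at 8.26, 8.08, 8.68 and 8.47 in CD34- arrays and at 12.47, 12.52, 12.39 and 12.27 in CD34+ arrays, a difference of 4.04 ± 0.16 (adjusted p = 7.42e-13). The arrays of each fraction lay close together and far from those of the other. Erdr1, a gene of the region shared by the X and Y chromosomes, was not above background on any CD34- array (6.17, 6.31, 6.20 and 6.12). It stood at 8.03, 9.90, 10.18 and 10.86 in the CD34+ arrays, at least 10.1-fold higher (adjusted p = 8.88e-05). Its level varied far more among CD34+ arrays than that of Il18r1, with replicate 1 lowest.

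Other large rises included those of several receptor genes. Ackr1, the Duffy receptor, which binds chemokines without signalling, was at 6.33, 6.64, 6.35 and 6.72 in CD34- arrays, of which 2 were above background, and at 9.32, 9.07, 9.30 and 9.18 in CD34+ arrays (2.71 ± 0.11, adjusted p = 7.42e-13). Lypd6b, a member of the Ly6 family, went from 8.39, 8.25, 7.87 and 7.98 to 10.60, 10.80, 10.48 and 11.02 (2.60 ± 0.16, adjusted p = 7.59e-10). Both genes separated the fractions on every array, as the choice of the largest rises required. Lpxn, which encodes the focal adhesion adaptor leupaxin, rose by 2.55 ± 0.15 and Ehd3, which acts in the recycling of membrane receptors, by 2.36 ± 0.11. Cd96, a receptor of the immunoglobulin family known from T and NK cells, rose by 2.14 ± 0.16 and Ffar2, a receptor for short-chain fatty acids, by 1.94 ± 0.19. Bcas1 (1.87 ± 0.17), Oosp1 (1.85 ± 0.21) and Parm1 (1.77 ± 0.18) also rose, and the largest adjusted p of these 7 genes was 5.44e-06, for Oosp1. In each of the 7 the arrays of the fractions did not overlap, as the choice of the largest rises required.

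Slc40a1, which encodes the iron exporter ferroportin, had the largest fitted fall. It was at 11.23, 11.13, 11.40 and 11.12 in CD34- arrays and at 8.43, 8.66, 8.60 and 8.42 in CD34+ arrays (-2.69 ± 0.15, adjusted p = 2.13e-10). Emp1, a membrane protein gene, went from 10.89, 10.64, 10.98 and 10.74 to 8.68, 9.03, 7.97 and 7.56 (-2.51 ± 0.24, adjusted p = 7.84e-07). Emp1 was lower on each CD34+ array, as that choice required, with replicate 4 lowest and replicate 2 highest among them. Ccl3 and Ccl4 encode chemokines that attract monocytes and lymphocytes. Ccl3 was at 8.60, 8.47, 7.75 and 8.43 and 6.44, 6.09, 6.47 and 6.07, where only 2 CD34+ arrays were above background (-2.04 ± 0.16, adjusted p = 3.43e-08). Ccl4 was at 12.88, 12.50, 12.36 and 12.79 and 10.66, 10.55, 10.77 and 10.49 (-2.01 ± 0.15, adjusted p = 2e-08). Both chemokine genes separated the fractions on all 8 arrays, which the choice of the largest falls required of them and of Emp1. Further large falls were those of Wfdc18 (-1.99 ± 0.14), the sphingosine kinase gene Sphk1 (-1.81 ± 0.29), the amino acid transporter gene Slc38a5 (-1.78 ± 0.32) and Fpr2, a receptor for formyl peptides (-1.71 ± 0.30). So were those of Mmp2, a collagen-degrading metalloproteinase (-1.68 ± 0.17), Tlr7, a sensor of single-stranded RNA (-1.52 ± 0.16), the metal-binding protein gene Mt1 (-1.498 ± 0.19) and the hexokinase gene Hk3 (-1.47 ± 0.16). The largest adjusted p among these 8 was 0.00165, for Slc38a5. Sphk1 and Slc38a5 varied widely among the CD34- arrays, with replicate 4 highest and replicate 1 lowest in both.

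**Figure D2:**
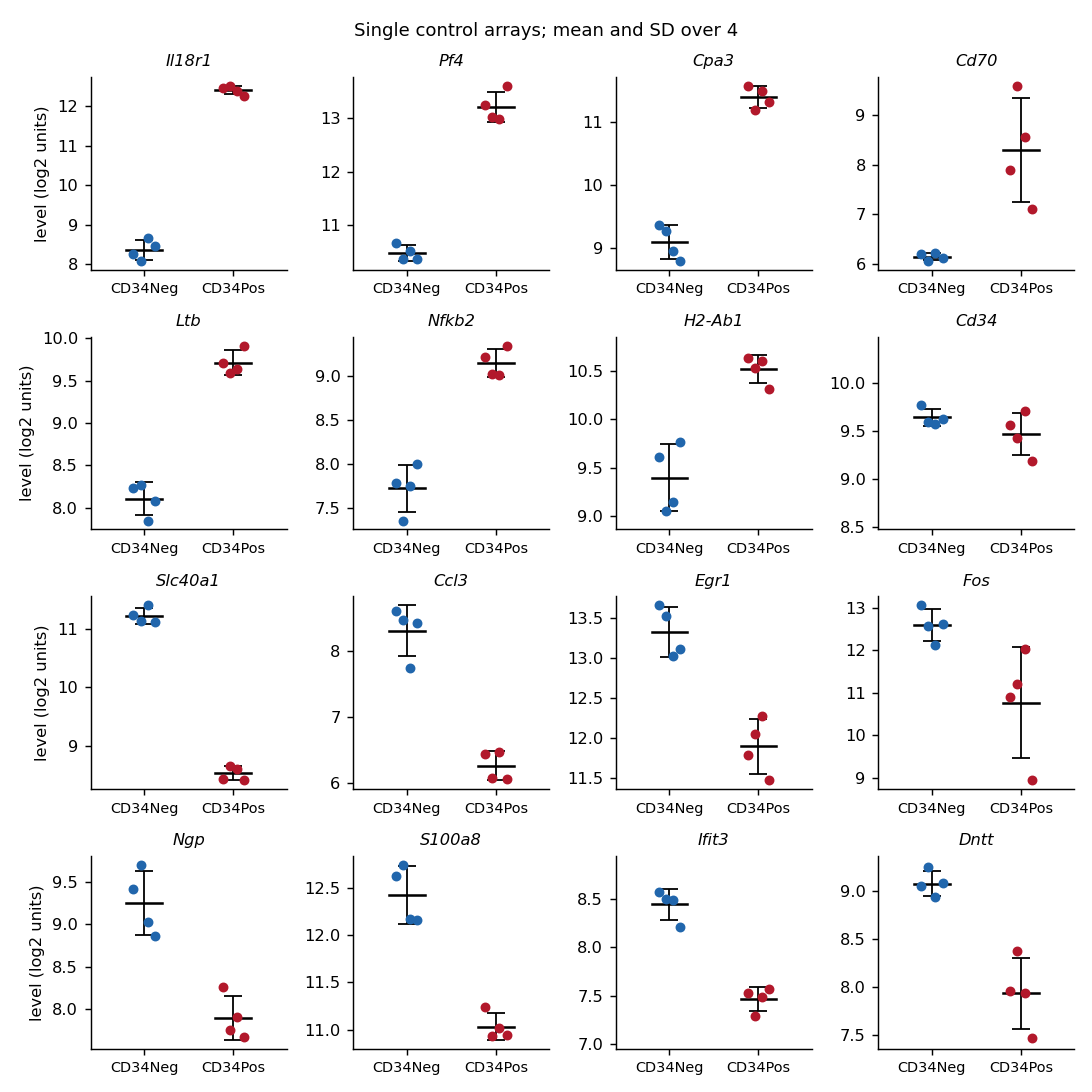
Level (y axis, log2 units) of 16 genes on single control arrays, CD34Neg in blue and CD34Pos in red, with bars for the mean and SD over 4 arrays and no panel spanning less than 2 units. The fractions overlap for Cd34 and lie apart for the other 15 genes, and Fos and Cd70 spread most among CD34Pos arrays.

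Of 25 measured NF-kB and TNF receptor genes, 9 rose and 0 fell, and 16 differences were above 0 (median difference 0.18, against -0.006 for all features). Over all features, 2.26% were higher and 2.56% lower. Promoters of those that rose are shown first, because a kappaB site is the sequence that NF-kB dimers bind. The sequences run 5′ to 3′ over 250 bases before to 50 bases after the gene's start, from RefSeq on GRCm38.p6, at chr17:35194257-35194556 on the + strand for Ltb, chr19:46304487-46304786 on the + strand for Nfkb2, chr10:19015361-19015660 on the - strand for Tnfaip3 and chr7:19822706-19823005 on the - strand for Bcl3. Capitals mark matches to the kappaB consensus on either strand.
Ltb: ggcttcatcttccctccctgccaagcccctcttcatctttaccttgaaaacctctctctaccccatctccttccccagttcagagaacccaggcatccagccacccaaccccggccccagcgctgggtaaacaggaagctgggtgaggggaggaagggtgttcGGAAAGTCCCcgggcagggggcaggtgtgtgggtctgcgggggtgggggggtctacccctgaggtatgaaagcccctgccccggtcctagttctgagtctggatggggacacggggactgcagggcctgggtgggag
Nfkb2: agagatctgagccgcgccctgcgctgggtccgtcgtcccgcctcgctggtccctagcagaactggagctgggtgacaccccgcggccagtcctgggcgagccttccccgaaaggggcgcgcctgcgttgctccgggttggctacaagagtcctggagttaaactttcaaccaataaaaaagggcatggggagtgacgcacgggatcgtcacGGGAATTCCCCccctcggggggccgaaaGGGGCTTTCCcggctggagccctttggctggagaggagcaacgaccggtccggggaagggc
Tnfaip3: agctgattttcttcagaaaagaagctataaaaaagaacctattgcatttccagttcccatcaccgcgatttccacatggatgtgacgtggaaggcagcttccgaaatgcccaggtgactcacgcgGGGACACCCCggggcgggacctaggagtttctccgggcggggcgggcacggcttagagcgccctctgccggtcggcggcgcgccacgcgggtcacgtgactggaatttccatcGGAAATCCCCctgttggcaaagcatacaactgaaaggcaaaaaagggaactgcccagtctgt
Bcl3: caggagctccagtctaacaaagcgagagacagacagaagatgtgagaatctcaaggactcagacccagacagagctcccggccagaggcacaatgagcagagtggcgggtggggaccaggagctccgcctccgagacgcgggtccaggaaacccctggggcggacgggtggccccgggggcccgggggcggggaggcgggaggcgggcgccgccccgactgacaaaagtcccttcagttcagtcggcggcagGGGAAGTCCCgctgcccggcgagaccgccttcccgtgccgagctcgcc
Nfkb2 held 3 matches, 2 of them overlapping, Tnfaip3 held 2, and Ltb and Bcl3 held 1 each. Of the 9 members that rose, 7 had a promoter entry and 6 of these held a match, as did 8 of 22 measured members with an entry (36.4%) and 2581 of 27025 genes in all (9.55%). A gene with several entries counted once if any of them held a match. A match is a description of these letters, and whether NF-kB bound there was not tested.

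Among the members that rose, the ligands were Cd70, described above, and Ltb, which encodes lymphotoxin beta. Ltb was at 8.24, 8.27, 7.85 and 8.08 in CD34- arrays and at 9.71, 9.59, 9.64 and 9.92 in CD34+ arrays (1.61 ± 0.11, adjusted p = 8.46e-09). Of the factors themselves, Nfkb2, the p100 subunit of the noncanonical pathway, went from 7.79, 7.36, 7.75 and 8.001 to 9.22, 9.03, 9.02 and 9.35 (1.43 ± 0.13, adjusted p = 4.47e-07). Its partner Relb rose by 0.93 ± 0.13 and Bcl3, a nuclear cofactor of NF-kB, by 0.85 ± 0.12. Of the inhibitors of the pathway 3 rose: Tnfaip3, the ubiquitin-editing enzyme A20, rose by 1.20 ± 0.14 (adjusted p = 7.54e-06), Nfkbia, which encodes IkB alpha, by 0.96 ± 0.15 (adjusted p = 0.000341), and Nfkbie, which encodes IkB epsilon, by 0.71 ± 0.16 (adjusted p = 0.0101). Birc3, an inhibitor of apoptosis that joins TNF receptor complexes, rose by 1.21 ± 0.29 (adjusted p = 0.0177), from 6.57, 6.497, 7.49 and 6.58 to 8.03, 7.63, 7.51 and 8.79. Its CD34- replicate 3 lay well above the other CD34- arrays and just under the lowest CD34+ array. When the index entered the fit 7 members rose, and Birc3 (adjusted p = 0.0792) and Nfkbie (adjusted p = 0.0773) no longer passed. Birc3 was also lost with 1 array left out (adjusted p up to 0.0684 without CD34- replicate 1, 2 or 4 or CD34+ replicate 4), and Nfkbie in the fit of the control arrays alone (adjusted p = 0.0541). Cd27 was at -0.24 ± 0.13. The mean level of the 25 members was 8.01 to 8.20 in CD34- and 8.54 to 8.60 in CD34+ arrays.

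Immediate early genes are transcribed within minutes of a stimulus and of cell handling. Of 20 measured members, 8 fell and 0 rose, against 2.56% lower and 2.26% higher of all features. In 17 the difference was below 0 (median -0.46). Egr1, a zinc finger factor active in resting stem cells, was at 13.66, 13.53, 13.02 and 13.11 in CD34- arrays and at 11.78, 12.05, 12.27 and 11.47 in CD34+ arrays (-1.44 ± 0.23, adjusted p = 0.000558). Fos, a subunit of the AP-1 factor, was at 13.06, 12.58, 12.13 and 12.63 and 10.91, 11.21, 12.03 and 8.94 (-1.83 ± 0.51, adjusted p = 0.0429). CD34+ replicate 4 had by far the lowest Fos level and replicate 3 nearly reached the CD34- arrays. The Fos call was lost when the index entered the fit (adjusted p = 0.286) and with 1 array left out (adjusted p up to 0.142 without CD34- replicate 1, 2 or 4 or CD34+ replicate 1 or 4). The phosphatase gene Dusp1 (-1.22 ± 0.24), the factor genes Klf6 (-1.23 ± 0.24), Klf2 (-0.95 ± 0.19), Fosb (-1.21 ± 0.23) and Jund (-0.55 ± 0.11) and Ier2 (-1.22 ± 0.27) also fell, with Ier2 at adjusted p = 0.00955, the largest of the 6. Ier2 did not pass with the index (adjusted p = 0.0771). Jun (-0.96 ± 0.33, adjusted p = 0.11) and Zfp36 (-0.90 ± 0.28, adjusted p = 0.0718) did not pass with all arrays, but did without CD34+ replicate 3 (adjusted p = 0.0407 and 0.0293). The mean level of the list was 8.55 to 8.99 in CD34- and 7.81 to 8.39 in CD34+ arrays, lowest in CD34+ replicate 4.

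The CArG box, which binds the serum response factor, was found in the promoter window of 0 of 6 immediate early genes that fell and had an entry. Egr1 and Ier2 fell too but had no entry. The box was in 2 of 16 measured immediate early genes with an entry (12.5%) and in 1.81% of 27025 genes. The cAMP response element TGACGTCA was in 1 of the 6, Dusp1, and in 2.03% of all, counting both strands. The kappaB consensus matched in 2 of these 6, Fos and Fosb, and in 5 of 16 measured immediate early genes with an entry (31.2%), a share near that of the measured NF-kB list.

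Markers of cell types that the sort should have left out moved with the fractions. Of 16 measured secondary and tertiary granule genes of neutrophils, 9 fell and 0 rose, against 2.56% lower and 2.26% higher of all features. All 16 differences were below 0 (median -1.12). S100a8, a subunit of calprotectin, was at 12.62, 12.74, 12.17 and 12.16 and 11.24, 10.93, 11.02 and 10.95 (-1.39 ± 0.18, adjusted p = 3.59e-05). Ngp, a neutrophil granule protein, was at 9.41, 9.70, 9.03 and 8.86 and 8.26, 7.76, 7.91 and 7.67 (-1.35 ± 0.21, adjusted p = 0.000435). Neither gene overlapped between the fractions. The iron-binding protein genes Ltf (-1.35 ± 0.25) and Lcn2 (-1.28 ± 0.22), Retnlg (-1.31 ± 0.26), Cd177 (-1.26 ± 0.23), Chil3 (-1.25 ± 0.22), the antimicrobial peptide gene Camp (-1.17 ± 0.21) and S100a9 (-1.07 ± 0.20) fell too, each at an adjusted p of at most 0.00312. The mean level of the list was 9.60 to 10.001 in CD34- and 8.82 to 9.16 in CD34+ arrays. In such bulk samples fewer cells of a type and less RNA per cell cannot be told apart.

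Macrophage markers fell at 9 of 25 members and rose at 1 (median -0.24), against 2.56% lower and 2.26% higher of all features. Besides Slc40a1, they included the lectin gene Fcna at 8.04, 7.74, 7.79 and 7.87 and 6.09, 6.17, 6.19 and 6.11 and the complement gene C1qb at 8.09, 7.32, 7.83 and 7.82 and 6.02, 6.16, 6.05 and 6.17. Neither Fcna nor C1qb was above background on any CD34+ array, and they were at least 2.84-fold (adjusted p = 2.13e-10) and 2.66-fold (adjusted p = 9.14e-08) lower there. The receptor tyrosine kinase gene Axl fell by 1.397 ± 0.18, the scavenger receptor gene Cd163 by 1.31 ± 0.18, the mannose receptor gene Mrc1 by 1.003 ± 0.12 and Adgre1, an adhesion receptor of macrophages, by 0.73 ± 0.13, each at an adjusted p of at most 0.00143. C1qc (-0.57 ± 0.081) also fell, while C1qa (-0.33 ± 0.098, adjusted p = 0.0544) passed only without CD34- replicate 2 (adjusted p = 0.0191) among the fits with 1 array left out. Lgmn, a lysosomal protease gene (-0.34 ± 0.097, adjusted p = 0.047), fell, and Spic, a factor of iron-recycling macrophages (0.43 ± 0.12, adjusted p = 0.0363), rose. Both calls were lost with the index (adjusted p = 0.111 for Lgmn and 0.0762 for Spic) and with 1 array left out, for Lgmn at adjusted p up to 0.153 without CD34- replicate 1 or 4 or CD34+ replicate 1, 2, 3 or 4 and for Spic at adjusted p up to 0.125 without CD34- replicate 2, 3 or 4 or CD34+ replicate 1. Siglec1, Maf, Cd5l, Marco and Ctsl were not above background on any control array. The mean level of the list was 7.36 to 7.44 in CD34- and 6.86 to 6.93 in CD34+ arrays, and its part in the results for other lists was not tested.

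Type I interferon induced genes, many of which act against viruses, were lower in CD34+ arrays at 9 of 28 members and higher at 0 (median -0.23). Over all features, 2.56% were lower and 2.26% higher. Ifit3, which restrains viral RNA, was at 8.57, 8.51, 8.49 and 8.21 and 7.53, 7.29, 7.48 and 7.56 (-0.98 ± 0.12, adjusted p = 1.94e-05). Mx2, an antiviral GTPase gene (-1.002 ± 0.12), and Usp18, the protease that restrains interferon signalling (-0.998 ± 0.13), fell by as much, without overlap between the fractions. Ifi27l2a (-1.04 ± 0.26, adjusted p = 0.0243), Oas2 (-0.81 ± 0.19, adjusted p = 0.0161), Oasl1 (-0.71 ± 0.14, adjusted p = 0.00479), Rsad2 (-0.71 ± 0.20, adjusted p = 0.0487), Irf9 (-0.46 ± 0.13, adjusted p = 0.0455) and Rtp4 (-0.38 ± 0.089, adjusted p = 0.0136) also fell. When the index entered the fit 6 of the 28 fell, and with 1 array left out 5 to 9 did. Ifi27l2a was lost at adjusted p up to 0.094 without CD34- replicate 1, 2 or 4 or CD34+ replicate 1 or 4, Oas2 at adjusted p up to 0.0616 without CD34- replicate 1 or CD34+ replicate 4 and Rsad2 at adjusted p up to 0.147 without CD34- replicate 1, 2, 3 or 4 or CD34+ replicate 1, 2 or 4. Irf9 was lost at adjusted p up to 0.155 without CD34- replicate 1, 3 or 4 or CD34+ replicate 2, 3 or 4 and Rtp4 at adjusted p up to 0.0577 without CD34- replicate 4. Of these genes Ifi27l2a, Oas2, Rsad2 and Irf9 did not pass with the index either, at adjusted p of 0.0556 (Irf9) to 0.266 (Rsad2). Of 21 interferon gamma induced genes 0 rose and 0 fell by the limma test in these mice without interferon gamma (median -0.04), and 2 were lower at an unadjusted p under 0.05. The mean level of the type I list was 8.50 to 8.63 in CD34- and 8.25 to 8.39 in CD34+ arrays.

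**Figure D3:**
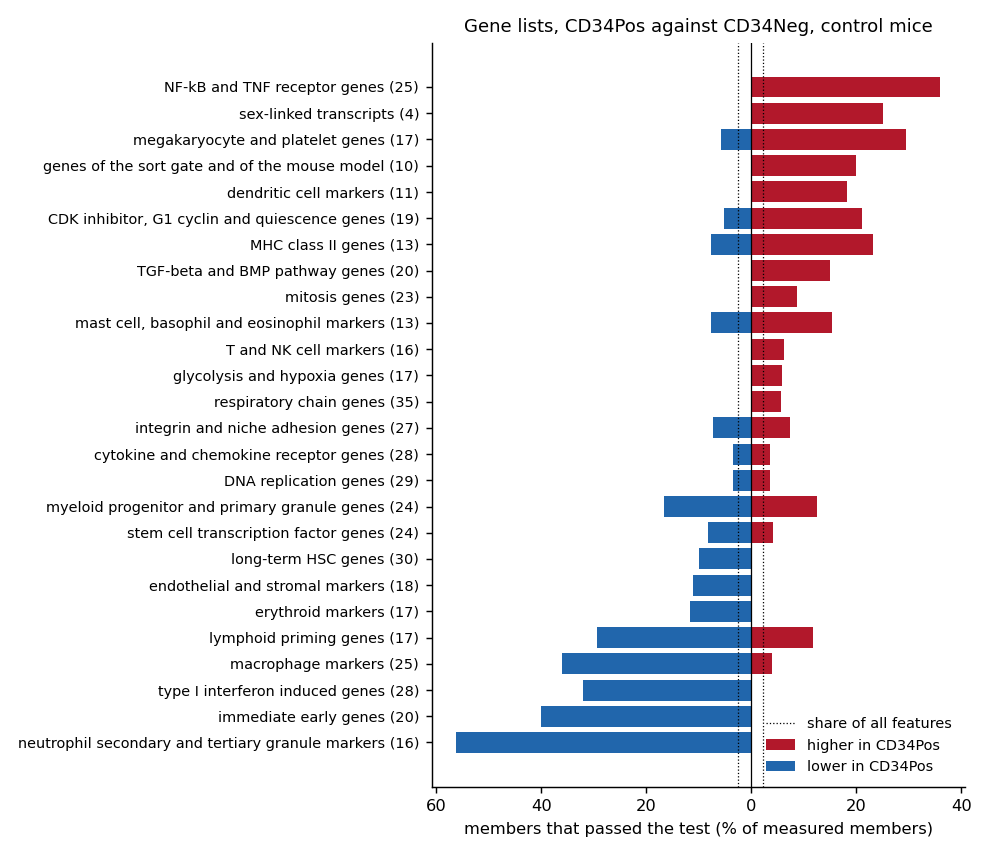
Share of the measured members of each gene list that passed the test between the fractions of control mice (x axis, percent), higher in CD34Pos to the right in red and lower to the left in blue, with the number measured in brackets and only lists with a member that passed. Dotted lines mark the share of all features, 2.26% higher and 2.56% lower.

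Megakaryocyte and platelet genes rose at 5 of 17 members and fell at 1 (median 0.21), against 2.26% higher and 2.56% lower of all features. Pf4, platelet factor 4, a chemokine of platelet granules, was at 10.67, 10.36, 10.52 and 10.36 and 13.25, 13.02, 12.995 and 13.61 (2.74 ± 0.16, adjusted p = 5.67e-10). Itga2b, which encodes CD41, was at 8.998, 8.63, 8.33 and 8.51 and 10.38, 10.03, 10.001 and 10.15 (1.52 ± 0.15, adjusted p = 8.63e-07). Both lay apart on every array, which the choice of the largest rises required of Pf4. Gp5 (1.09 ± 0.16) and Gp1bb (0.88 ± 0.11), subunits of the receptor for von Willebrand factor, and Treml1 (0.96 ± 0.17) rose at an adjusted p of 0.00104 or less. Selp, the adhesion receptor P-selectin, fell (-0.74 ± 0.20, adjusted p = 0.0392), a call lost with the index (adjusted p = 0.0896) and with 1 array left out (adjusted p up to 0.131 without CD34- replicate 1, 3 or 4 or CD34+ replicate 2, 3 or 4), and Vwf did not pass (-0.33 ± 0.14, adjusted p = 0.195). The mean level of the list was 8.19 to 8.41 in CD34- and 8.63 to 8.84 in CD34+ arrays.

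Mast cell and basophil markers did not move one way, with 2 of 13 higher and 1 lower (median 0.08). Over all features, 2.26% were higher and 2.56% lower. Cpa3, the mast cell carboxypeptidase, was at 9.37, 9.27, 8.95 and 8.80 and 11.57, 11.19, 11.49 and 11.32 (2.30 ± 0.15, adjusted p = 1.5e-09). Fcer1a, the alpha chain of the high-affinity IgE receptor, rose by 1.71 ± 0.20 from a level above background on 2 of 4 CD34- arrays (adjusted p = 1.03e-05). Hdc, the enzyme that makes histamine, fell by 1.35 ± 0.23 (adjusted p = 0.000768). A further 4 markers were not above background on any control array.

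Myeloid progenitor and primary granule genes were called in both directions, 3 higher and 4 lower of 24 (median -0.006). The shares of all features were 2.26% higher and 2.56% lower. Ms4a3, a marker of granulocyte and monocyte progenitors, was at 6.49, 6.59, 6.55 and 6.81 and 8.15, 7.75, 7.38 and 8.20 (1.26 ± 0.16, adjusted p = 2.61e-05). Srgn, the granule proteoglycan serglycin, rose by 0.99 ± 0.28 (adjusted p = 0.0438) and Nkg7, a granule membrane protein gene, by 0.66 ± 0.16 (adjusted p = 0.0197). The fallen members were Hp, which encodes haptoglobin (-1.12 ± 0.23), the proteinase 3 gene Prtn3 (-0.93 ± 0.15) and the factor genes Cebpe (-0.75 ± 0.17) and Gfi1 (-0.61 ± 0.15). Mpo (0.20 ± 0.14, adjusted p = 0.468), Elane (-0.55 ± 0.25, adjusted p = 0.241) and Ctsg (0.47 ± 0.24, adjusted p = 0.331), which encode the main proteins of primary granules, did not pass. Srgn, Cebpe and Gfi1 did not pass with the index, at adjusted p = 0.246, 0.093 and 0.0719, while Ctsg did (0.82, adjusted p = 0.04955). With 1 array left out Nkg7 was lost at adjusted p up to 0.0732 without CD34- replicate 2 or CD34+ replicate 1, Srgn at adjusted p up to 0.158 without CD34- replicate 1, 2 or 4 or CD34+ replicate 1 or 4 and Gfi1 at adjusted p up to 0.0595 without CD34- replicate 1 or CD34+ replicate 1 or 4.

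MHC class II genes, which present peptides to T cells, rose at 3 of 13 members and 1 fell (median 0.13). For this list and the next, the shares of all features were 2.26% higher and 2.56% lower. H2-Ab1 was at 9.61, 9.05, 9.14 and 9.77 and 10.64, 10.54, 10.60 and 10.32 (1.13 ± 0.16, adjusted p = 8.02e-05). H2-Aa (1.12 ± 0.20) and H2-Eb1 (0.82 ± 0.18, adjusted p = 0.0101) rose as well, while the costimulatory ligand gene Cd86 fell (-0.64 ± 0.16, adjusted p = 0.024). Of the lymphoid priming genes, 2 of 17 rose, Ltb and Cd48, and 5 fell (median -0.14). Dntt, the enzyme that adds bases to antigen receptor joints, was at 9.04, 9.24, 8.93 and 9.07 and 7.96, 8.37, 7.94 and 7.47 (-1.14 ± 0.18, adjusted p = 0.000331). The factor genes Mef2c (-0.80 ± 0.20, adjusted p = 0.0198) and Satb1 (-0.55 ± 0.12, adjusted p = 0.0101) and the receptor gene Notch1 (-0.70 ± 0.14, adjusted p = 0.00529) fell. Rag2, a subunit of the recombinase, fell to levels not above background on any CD34+ array (at least 1.14-fold, adjusted p = 0.00135). Cd86 and Mef2c were lost in a fit of the 8 control arrays alone, at adjusted p = 0.0867 and 0.0754, and Satb1 with the index (adjusted p = 0.0858). With single arrays left out Cd86 was lost at adjusted p up to 0.0877 without CD34- replicate 1, 3 or 4 or CD34+ replicate 1 or 3, and Mef2c at adjusted p up to 0.0732 without CD34- replicate 1 or CD34+ replicate 2, 3 or 4.

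**Figure D4:**
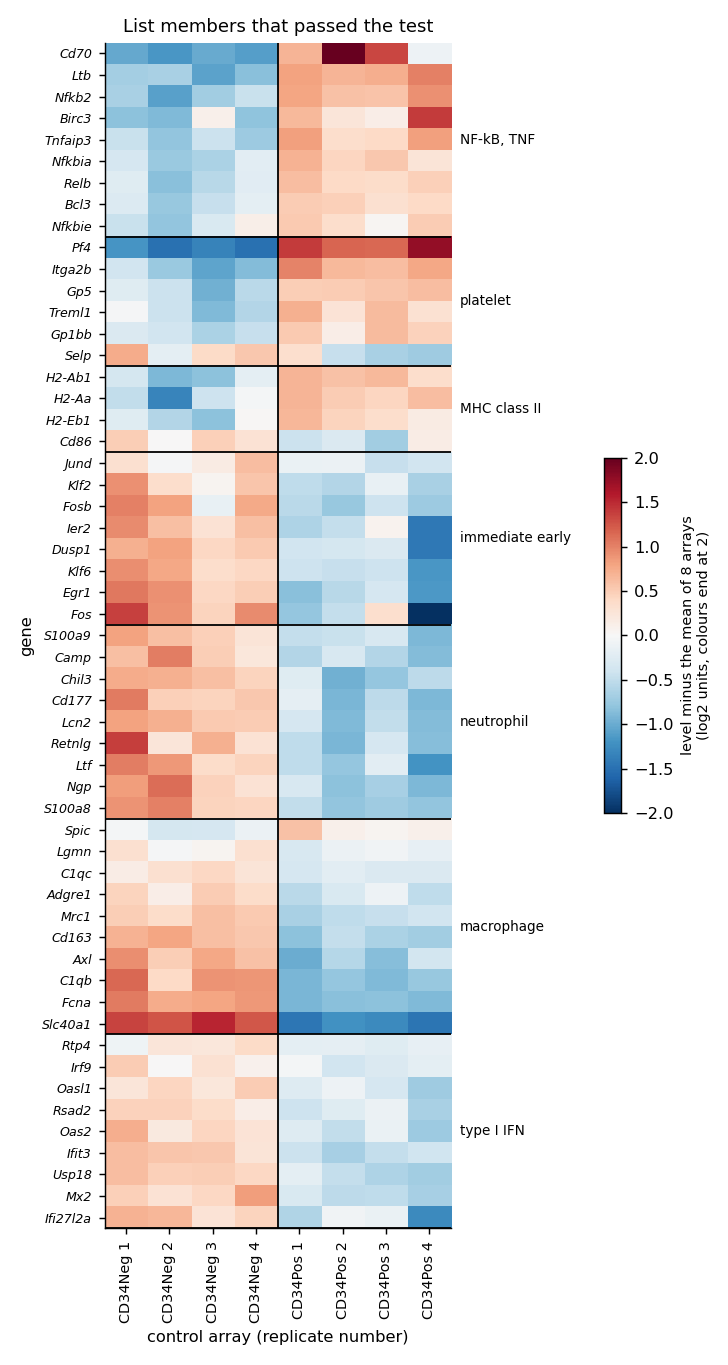
Level of each member that passed the test, minus its mean over the 8 control arrays (colour, log2 units, ending at 2 in both directions), by array (columns) and gene (rows) for 7 lists. The 4 CD34Neg and 4 CD34Pos columns differ in colour for nearly every gene, and CD34Pos replicate 4 is the lowest for Fos, Dusp1, Ier2 and Klf6.

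Of 30 measured long-term HSC genes, 3 fell and 0 rose (median -0.07), against 2.56% lower and 2.26% higher of all features. In 20 of the 30 the difference was below 0, and 24 were above background. The sulfotransferase gene Sult1a1 (-0.74 ± 0.16, adjusted p = 0.00934), the guidance receptor gene Robo4 (-0.62 ± 0.15, adjusted p = 0.0211) and the clusterin gene Clu (-0.49 ± 0.12, adjusted p = 0.0222) fell. None of the 3 passed once the index entered the fit, at adjusted p = 0.0508, 0.0999 and 0.13. Robo4 was also lost at adjusted p up to 0.0772 without CD34- replicate 1 or 4 or CD34+ replicate 1, 3 or 4, and Clu at adjusted p up to 0.0917 without CD34- replicate 1 or 2 or CD34+ replicate 1 or 2. Members that are often used to define long-term cells did not pass, with Hoxb5, a homeobox factor, at -0.34 ± 0.11, Procr, which encodes EPCR, at -0.090 ± 0.11, Mecom, a zinc finger factor, at -0.18 ± 0.094 and the cell cycle inhibitor gene Cdkn1c at -0.067 ± 0.13. The smallest adjusted p of these 4 was 0.0805, for Hoxb5, which passed without CD34- replicate 2 (adjusted p = 0.0295). Among 24 stem cell factor genes 1 rose and 2 fell (median -0.006). Gata2, which maintains stem cells, was at 12.58, 12.25, 12.35 and 12.46 and 13.33, 12.98, 13.22 and 13.35 (0.80 ± 0.098, adjusted p = 1.62e-05). Hoxa9 fell by 0.70 ± 0.12 (adjusted p = 0.000953), and the other was Egr1. Myb was at 1.46 ± 0.46 with an SE that left it short of the threshold (adjusted p = 0.0774), and it passed without CD34- replicate 3 or CD34+ replicate 2 (adjusted p down to 0.0207).

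Cell cycle genes were set beside all features, of which 2.26% were higher and 2.56% lower. A single call each way among the replication genes is near those shares. Of 29 DNA replication genes 1 rose and 1 fell (median 0.09), the primase gene Prim1 (0.83 ± 0.24, adjusted p = 0.0472) and the helicase subunit gene Mcm7 (-0.54 ± 0.11, adjusted p = 0.00629). Of 23 mitosis genes 2 rose and 0 fell (median 0.09), Kif2c (0.43 ± 0.11, adjusted p = 0.0275) and Nusap1 (0.53 ± 0.14, adjusted p = 0.0284), both of which act on spindle microtubules. The cyclin-dependent kinase gene Cdk1 (-0.00475 ± 0.18), the mitotic kinase gene Plk1 (-0.00425 ± 0.16), the topoisomerase gene Top2a (0.16 ± 0.13) and Pcna, the sliding clamp of replication (0.91 ± 0.34), did not pass. On average the replication list lay at 9.61 to 9.683 in CD34- and 9.6895 to 9.91 in CD34+ arrays. The mitosis list lay at 7.99 to 8.06 and 8.10 to 8.29. Neither overlapped, but the replication list did so by a narrow margin. Differences were above 0 in 23 of 29 and 17 of 23 members, which share the same arrays and are not replicates. Of the mitosis genes 7 were not above background on any control array. Whether either list rose as a whole was not tested. Among 19 inhibitors of cyclin-dependent kinases, G1 cyclins and quiescence genes 4 rose and 1 fell (median 0.02). Ccng2, an atypical cyclin gene of resting cells, rose by 0.86 ± 0.19 (adjusted p = 0.00955), the retinoblastoma family gene Rbl1 by 0.57 ± 0.14, Ccng1 by 0.49 ± 0.14 and the antiproliferation gene Btg1 by 0.41 ± 0.11. Ccnd2, which encodes cyclin D2, fell by 0.60 ± 0.15 (adjusted p = 0.0203). None of the 4 rises passed with the index (adjusted p = 0.0556 for Ccng2, the smallest), and Prim1 and Nusap1 did not either. With 1 array left out, calls were lost for Prim1 (adjusted p up to 0.164 without CD34- replicate 1, 2 or 4 or CD34+ replicate 1, 2 or 4), Kif2c (adjusted p up to 0.0812 without CD34- replicate 1, 3 or 4 or CD34+ replicate 1, 2 or 3) and Nusap1 (adjusted p up to 0.106 without CD34- replicate 2 or 4 or CD34+ replicate 2 or 3). They were lost likewise for Rbl1 (adjusted p up to 0.0929 without CD34- replicate 1 or 4 or CD34+ replicate 3 or 4), Ccng1 (adjusted p up to 0.154 without CD34- replicate 1, 2 or 4 or CD34+ replicate 1, 2, 3 or 4), Btg1 (adjusted p up to 0.134 without CD34- replicate 2 or 4 or CD34+ replicate 1, 3 or 4) and Ccnd2 (adjusted p up to 0.0677 without CD34- replicate 4 or CD34+ replicate 2 or 3).

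The next lists are set beside all features, of which 2.26% were higher and 2.56% lower. Of 22 ribosome biogenesis genes 0 rose and 0 fell by the limma test (median 0.01), and 3 were higher at an unadjusted p under 0.05. Respiratory chain genes rose at 2 of 35, the cytochrome c gene Cycs (0.91 ± 0.26) and the complex I gene Ndufb2 (0.56 ± 0.15), and glycolysis and hypoxia genes at 1 of 17, Ndrg1 (0.52 ± 0.14), each at an adjusted p of at most 0.049 and each lost with the index. In these lists 0 fell, and their medians were 0.09 and 0.02. TGF-beta and BMP pathway genes rose at 3 of 20 and fell at 0 (median 0.06): the co-receptor gene Tgfbr3 at 7.97, 8.10, 8.04 and 7.82 and 8.82, 8.61, 8.82 and 8.95 (0.82 ± 0.11, adjusted p = 6.04e-05), the signal carrier gene Smad1 by 0.72 ± 0.16 and the SMAD repressor gene Skil by 0.53 ± 0.14. Smad1 and Skil were lost with the index (adjusted p = 0.0643 and 0.199). With 1 array left out, calls were lost for Cycs (adjusted p up to 0.164 without CD34- replicate 1, 2 or 4 or CD34+ replicate 1, 2, 3 or 4), Ndufb2 (adjusted p up to 0.124 without CD34- replicate 1, 2 or 4 or CD34+ replicate 1, 2, 3 or 4), Ndrg1 (adjusted p up to 0.144 without CD34- replicate 2 or 3 or CD34+ replicate 1 or 4) and Skil (adjusted p up to 0.102 without CD34- replicate 1 or 2 or CD34+ replicate 1, 2 or 4). Among 28 cytokine and chemokine receptor genes, Il18r1 rose and Il10ra fell (-0.55 ± 0.14, adjusted p = 0.0246). A single call each way among them is near the shares of all features. Of 27 adhesion genes 2 rose, Itga2b and Itgb1 (0.39 ± 0.11, adjusted p = 0.0463), and 2 fell, Selp and Alcam (-0.63 ± 0.18, adjusted p = 0.0494). Another probe of Itgb1 differed in the opposite direction without passing. Neither Itgb1 nor Alcam passed with the index (adjusted p = 0.252 and 0.0565). With 1 array left out Il10ra was lost at adjusted p up to 0.0952 without CD34- replicate 4 or CD34+ replicate 3 or 4, Itgb1 at adjusted p up to 0.172 without CD34- replicate 1, 2, 3 or 4 or CD34+ replicate 1, 3 or 4 and Alcam at adjusted p up to 0.135 without CD34- replicate 1 or 3 or CD34+ replicate 2, 3 or 4.

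Markers of further cell types are given beside all features, of which 2.26% were higher and 2.56% lower. Of 17 erythroid markers 2 fell, the water channel gene Aqp1 (-1.04 ± 0.20, adjusted p = 0.00238) and the erythroid factor gene Klf1 (-0.80 ± 0.17, adjusted p = 0.0087), and 0 rose (median -0.13). Of 18 endothelial and stromal markers 2 fell, the sialomucin gene Emcn, also used to mark stem cells, at 11.25, 11.17, 11.42 and 11.15 and 10.52, 10.38, 9.96 and 10.08 (-1.01 ± 0.15, adjusted p = 0.000169), and the proteoglycan gene Bgn (-0.84 ± 0.13, adjusted p = 0.00045). Of 11 dendritic cell markers 2 rose, Clec10a (0.79 ± 0.17) and Zbtb46 (0.42 ± 0.10), and of 16 T and NK cell markers Thy1, which stem cells also express, rose by 0.93 ± 0.17 (adjusted p = 0.00143). Of 13 B cell and plasma cell markers 0 passed in the limma fit, and 3 were lower at an unadjusted p under 0.05. Among 4 sex-linked transcripts the Y-linked Eif2s3y was higher by 0.55 ± 0.16 (adjusted p = 0.0479) with overlapping arrays and lost its call with the index (adjusted p = 0.265), as did Klf1 and Clec10a. Leaving out 1 array, Eif2s3y was lost at adjusted p up to 0.174 without CD34- replicate 1, 2 or 4 or CD34+ replicate 1, 3 or 4 and Zbtb46 at adjusted p up to 0.0634 without CD34- replicate 1 or 3 or CD34+ replicate 3.

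The same fractions of CD70TG mice, on 8 further arrays that enter the control comparison through the shared estimate of the spread, gave 189 features higher (1.03%) and 482 lower (2.63%) in the CD34+ fraction, in all 671 (3.66%). Of the 413 features higher in control mice, 386 differed in the same direction in CD70TG mice and 115 were called there. Of the 468 lower ones, 444 had the same direction and 247 were called, and 0 were called the opposite way in either set. The 362 shared calls were 41.1% of those in control mice and 54.0% of those in CD70TG mice. Over the 881 features called in control mice, the differences of both genotypes correlated at Pearson r = 0.871 and Spearman rho = 0.911, a description across features of the same arrays that are not independent replicates. Il18r1 differed by 3.59 in CD70TG mice, Pf4 by 1.70, Nfkb2 by 1.84, Egr1 by -1.78 and S100a8 by -1.41. Cd70 did not pass in CD70TG mice (0.80), but the difference between the genotypes did not pass either (adjusted p = 0.36).

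The test of whether a difference between the fractions depended on genotype called 40 features (0.218%), with the control value higher in 34 (0.186%) and lower in 6 (0.0328%), and 28 of them were among the control calls. Macrophage markers made up 14 of the 40. All 14 were lower in the CD34+ fraction of CD70TG mice, 8 of them passed as lower in control mice too, and each had the higher value in control mice. Slc40a1 differed by -2.69 in control and -4.13 in CD70TG mice (interaction adjusted p = 0.00155), Fcna by -1.72 and -3.38 (1.3e-06), Mrc1 by -1.003 and -2.76 (1.49e-05) and Axl by -1.397 and -3.47 (0.000182). Lpl, which encodes lipoprotein lipase, was at -1.28 and -4.09 (8.34e-05), and the organic anion transporter gene Slco2b1 at -0.50 and -2.49 (0.00015), where the control value did not pass. Vcam1, an adhesion molecule, was at 0.70 and -1.14 (0.0116), and it too did not pass in control mice. The rise of Ms4a3 in control mice had no counterpart of its size in CD70TG mice (1.26 and 0.12, 0.0281). Larger rises in CD70TG mice were those of Ehd3 (2.36 and 3.41, 0.00176) and Esm1, an endothelial proteoglycan gene (1.22 and 2.31, 0.0281). No member of the NF-kB, immediate early, interferon or platelet lists was called for this interaction by limma, which does not show that they were equal. At an unadjusted p under 0.05 the interaction was met by 7 of 17 platelet, 4 of 28 type I interferon, 4 of 25 NF-kB and 0 of 20 immediate early genes. The control value was higher in all 7 platelet and all 4 interferon genes, and in 2 of the 4 NF-kB genes. The share of all features at an unadjusted p under 0.05 was not counted, so no list count at that threshold is compared with it.

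**Figure D5:**
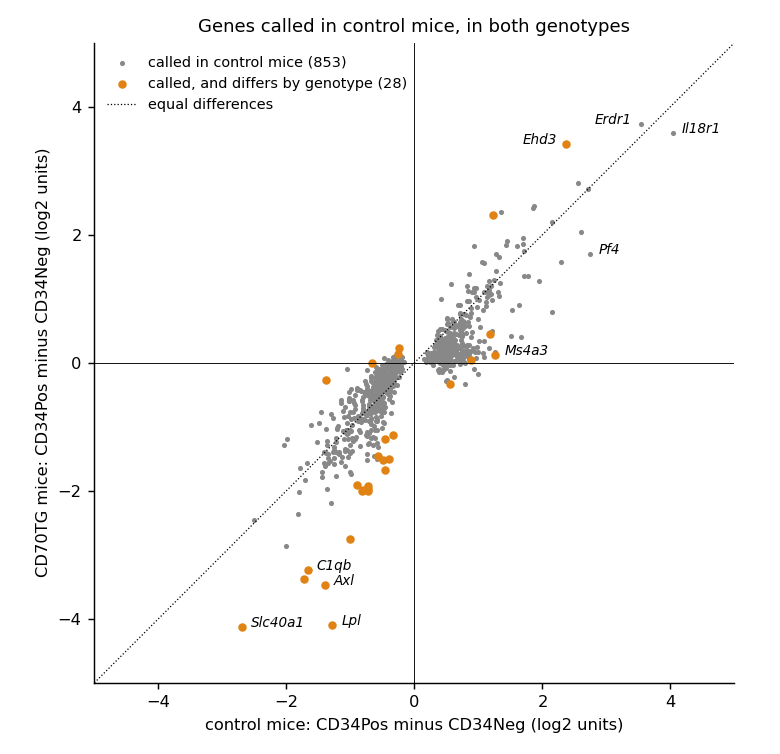
Difference between the fractions in control mice (x axis, log2 units) and in CD70TG mice (y axis, log2 units) for the 881 features called in control mice, with the line of equal differences dotted. Orange points are the 28 that also differ by genotype, and most of these lie below the line at the lower left, among them Slc40a1, Axl and Lpl.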

How the data were processed

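Per the labels' protocols, RNA was amplified, biotinylated and read on Illumina bead arrays for mouse. The values are the authors' deposited log2 values (25697 probes on 16 arrays), whose log base, background correction and normalization have no source here. Their range and like medians are those of values already logged and scaled, and a fold holds only if the base is 2. A table of 32 columns of per-sample values was left out, since its column names match no label.

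The members, lists and alternatives were chosen with earlier results of these data known. Platform symbols were updated by gene number (23962 probes matched, 1719 without a symbol, 0 with several), and the probe with the highest mean stood for its gene. Of the other probes of named genes 13 were called the same way, 13 had the same direction without a call, 1 was opposite without a call and 18 were dim. No pair of arrays shared over 0.288% identical values. Background was the mode of an array's values plus the upper 5% point of a normal spread fitted below it. For a gene above it on no array of the lower fraction, "at least" folds use, per array, the higher of the lowest signal above background and the gene's own.

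limma (3.58.1, R 4.3.3) fitted 4 group means over all 16 arrays (12 residual degrees of freedom) with eBayes and a trend, was tested on simulated data, and adjusted p over 18312 features by Benjamini-Hochberg. The arrays' number limits precision. Pools of separate mice set the spread behind each p. Named genes were the 15 largest rises and 15 largest falls without overlap, up to 3 called members of each of 29 lists, the gate genes and the 5 largest interactions each way. Further list members were named after their values were seen. Alternatives were a filter on dim probes, single probes, a fit of the compared arrays alone, a fixed or random block for the replicate number, array weights, the index, quantile normalization and each array left out.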

Additional observations from a re-analysis of the deposited data

Results flagged for a closer look

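In 336 groups of 4 control arrays (the levels of the named genes in each fraction and the probe discordance index), 19 (5.65%) held 1 array farther from the others than Dixon's 95% critical value allows, where chance gives about 1 in 20. CD34+ replicate 4 was that array for 7 of them, with low levels of Bgn (9.372), Cd27 (12.204), Dusp1 (10.619), Klf6 (9.694) and Parm1 (8.693) and high levels of Itgb1 (8.364) and Gjd2 (6.12, at background). CD34- replicate 3 was that array for 4, with high levels of Birc3 (7.487), the chaperonin gene Cct5 (10.538), Myb (8.872) and Prim1 (8.411). High CD34- replicate 1 levels were those of Cd177 (9.463), Mef2c (12.463) and Oosp1 (7.614). CD34- replicate 2 was low for Cd27 (12.54) and Tlr7 (8.935). CD34+ replicate 1 was low for Rag2 (6.066, not above background) and high for Spic (8.71) and Top2a (8.518).

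In 18 of the named genes the difference between the fractions itself differed between control and CD70TG mice in the limma interaction test. Control minus CD70TG, it was 2.81 for Lpl, 2.07 for Axl, 1.99 for Slco2b1, 1.85 for Vcam1, 1.76 for Mrc1, 1.66 for Fcna, 1.58 for C1qb, 1.43 for Slc40a1 and 1.25 for Adgre1. C1qa (0.911), C1qc (0.888) and Lgmn (0.788) stood on the same side, as did Ms4a3 (1.15). On the other side stood Esm1 (-1.09), Ehd3 (-1.05), Evc2 (-0.67), Mettl7b (-0.47) and Gjd2 (-0.39). Gjd2 was not above background on any control array.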

How the results depend on the processing

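Of 141 named genes that passed in control mice, 88 passed under all alternatives run for them and 53 lost the call under at least 1, and 0 changed direction. With the index as a covariate 98 of the 141 passed and 630 features were called (317 higher, 313 lower), 480 of them among the 881. In a fit of only the 8 control arrays, which has fewer degrees of freedom, 467 features were called (197 higher, 270 lower), 459 of them shared. The other alternatives gave 711 to 1055 calls. Leaving out 1 array at a time gave 570 to 1065 calls in control mice (246 to 604 higher, 324 to 476 lower), the fewest without control CD34+ replicate 4 and the most without control CD34- replicate 3. In CD70TG mice it gave 490 to 622 (135 to 166 higher, 355 to 460 lower), and 312 features were called higher with array weights. The interaction gave 30 to 57 calls (28 to 49 higher, 1 to 8 lower), with 1 lower call without CD70TG CD34- replicate 3 and 8 without control CD34- replicate 3, and 3 lower calls after quantile normalization. The index difference ran from 0.458 to 1.01. Where no cause is named, the cause was not tested.

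Same-numbered control arrays deviated from their group means with correlations of 0.064, 0.109, -0.307 and -0.079, and those of CD70TG mice with 0.443, 0.653, -0.030 and 0.158. Not every pair was above 0.1 and not every array correlated best with its own number, so the numbers were not taken to pair the samples. With the replicate block 975 features were called (480 higher, 495 lower), 831 of them shared. Differences of dim genes are limited by signal over background, since 5552 features were not above it on any control array.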

Other observations

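Gene families were also described that were chosen after their values were seen, so their counts are no test of a family. Of all features 2.26% were higher and 2.56% lower. Of 57 measured histone genes 3 fell in the CD34+ fraction and 0 rose (median 0.08), H3c7 (-1.36 ± 0.18, adjusted p = 3.46e-05), H2ac18 (-1.38 ± 0.24, adjusted p = 0.00128) and H2ac6 (-1.44 ± 0.33, adjusted p = 0.0128). Each was lowest in CD34+ replicate 4, and H2ac6 did not pass once the probe discordance index was added (adjusted p = 0.0992) or without CD34- replicate 4 (adjusted p = 0.0563). Of 8 Gimap genes, which encode GTPases known from lymphocytes, 3 rose and 0 fell (median 0.21). Gimap7 was at 8.11, 8.18, 8.49 and 8.33 in CD34- and at 10.14, 10.29, 10.03 and 9.41 in CD34+ arrays (1.69 ± 0.15, adjusted p = 3.36e-07). Gimap1 (0.43 ± 0.11, adjusted p = 0.0303) and Gimap8 (0.50 ± 0.13, adjusted p = 0.032) rose less, and both were lost with the index and with 1 array left out (adjusted p up to 0.117 without CD34- replicate 1, 2 or 3 or CD34+ replicate 1, 2 or 4 for Gimap1, adjusted p up to 0.12 without CD34- replicate 1 or 4 or CD34+ replicate 1, 2 or 4 for Gimap8).

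Chaperone genes rose at 5 of 74 and fell at 1 (median 0.03), against 2.26% higher and 2.56% lower of all features. Hspa5, the chaperone of the endoplasmic reticulum, was at 7.07, 7.03, 8.84 and 6.68 in CD34- and at 9.37, 8.36, 8.08 and 9.83 in CD34+ arrays (1.502 ± 0.41, adjusted p = 0.0367), so that CD34- replicate 3 lay above 2 CD34+ arrays. Cct5 (1.26 ± 0.36), Hspa4 (0.53 ± 0.15), Dnaja2 (0.56 ± 0.15) and Dnajc2 (0.54 ± 0.13) were the others. None of the 5 passed with the index as a covariate, where Dnajc2 came closest (adjusted p = 0.111). With 1 array left out all 5 were lost, Hspa5 at adjusted p up to 0.132 without CD34- replicate 1, 2 or 4 or CD34+ replicate 1 or 4. Of 36 chemokine genes, 9 of them above background, 1 rose and 2 fell. The 2 were Ccl3 and Ccl4, and Ccl5, a chemokine of T cells, rose by 1.08 ± 0.27 (adjusted p = 0.0197), a call lost at adjusted p up to 0.0814 without CD34- replicate 4 or CD34+ replicate 1 or 3.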
